A study of Homo sapiens with 6 samples.

Results

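COMPASS complexes methylate lysine 4 of histone H3 (H3K4), a mark of active promoters and enhancers. Each complex is built on one SET-domain methyltransferase and a shared core that includes WDR5, and further subunits belong only to certain complexes and direct them to their sites. The 9 genes described here encode such accessory subunits and were taken by name from the 19792 genes of the authors' DESeq2 table. CXXC1 and WDR82 belong to the SETD1A and SETD1B complexes, MEN1 and PSIP1 to the MLL1 and MLL2 complexes, and NCOA6, PAXIP1, PAGR1 and KDM6A to the MLL3 and MLL4 complexes. HCFC1 is found with both SETD1 and MLL1/2.

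RNA-seq was performed on BT-549 cells, a human triple-negative breast cancer line, with a puromycin-selected vector whose WDR5 shRNA is switched on by doxycycline (DOX). Of the 6 libraries, 3 came from cultures given 0.1% DMSO as vehicle and 3 from cultures given 500 ng/ml DOX, for 7 days by the study's text. All 6 libraries carry the same shRNA, so DOX itself, other effects of the shRNA and silencing of WDR5 cannot be told apart. The authors' table gives, for each gene, the mean normalized count over the 6 libraries, the log2 ratio of DOX to vehicle (log2 fold change) with its standard error (SE), and an adjusted p-value from DESeq2's Wald test. Values of single libraries were not used here, so the SE, as modelled by DESeq2, is the one trace of how cultures varied. The depth of each library is unknown. In a bulk sample, fewer cells of a type and less RNA per cell cannot be told apart. WDR5 mRNA was left at 13.6% of vehicle (95% interval 12.2% to 15.2%). Of the listed markers of the line, VIM and FN1 were abundant, at mean normalized counts of 47782 and 30461, whereas ESR1, PGR and EPCAM were near 0, at 0.79, 0.80 and 1.3. CDH2 and ZEB1, listed as high like VIM and FN1, had mean normalized counts of 4093 and 7333. ERBB2 and CDH1, listed as low like ESR1, PGR and EPCAM, had 1221 and 59.6. ERBB2 went against its listing, since 69.9% of genes with an adjusted p had a lower mean. With DOX, VIM, FN1, CDH2 and ERBB2 rose to 118.6%, 122%, 180.7% and 137% of vehicle, and ZEB1 and CDH1 fell to 73.3% and 62.5%. Of 6 markers of other cell types, CD3E had no row and VWF and PECAM1 were near 0, whereas CD68, PTPRC and PDGFRA were higher with DOX. The summed level of these markers, computed from the table, was 1868 normalized counts with vehicle and 2325 with DOX. CD68 alone made up 1644 and 1983 of these. The part of the markers in the changes below was not tested.

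With DOX, 6 of the 9 accessory genes changed. NCOA6, PAXIP1, PSIP1 and KDM6A fell to between 72.6% and 79.0% of vehicle, WDR82 rose to 121.6%, and HCFC1 rose to 113.2%. The intervals of CXXC1, MEN1 and PAGR1 included no change. The calls of 4 lower and 2 higher genes at an adjusted p under 0.05 (DESeq2) have to be read against the whole table, in which 46.8% of the 15954 genes with an adjusted p were called, 22.5% lower and 24.3% higher. All 9 genes were well expressed, with a mean normalized count above 500. Of the 7650 genes at 500 or more, called well-expressed genes here, 65.4% were called, 28.1% lower and 37.3% higher. The 66.7% of accessory genes that were called was thus near the share of well-expressed genes, a set with mean normalized counts up to 231159. The cut at 500 was chosen after seeing the data. The median log2 fold change was -0.01 over the 9 genes, -0.01 over all genes with an adjusted p and 0.05 over well-expressed genes. In absolute size the median was 0.28 for the accessory genes and 0.23 for well-expressed genes.

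**Figure D1:**
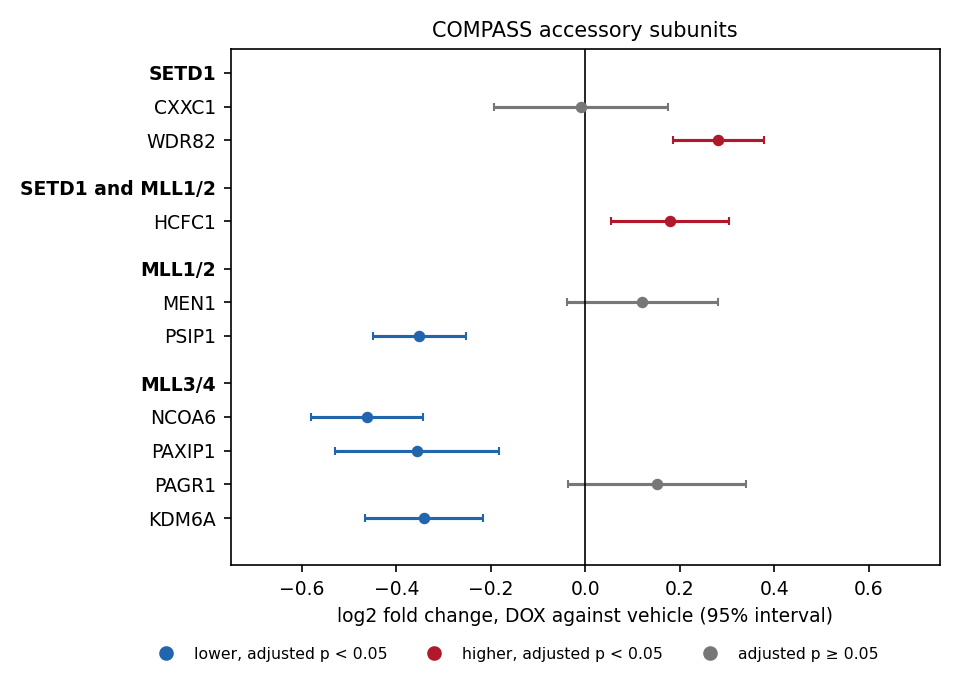
Response to DOX of each accessory subunit gene, as log2 fold change, grouped by complex, from the authors' DESeq2 table (3 cultures a group). Points are the estimates and bars the 95% intervals. NCOA6, PAXIP1, KDM6A and PSIP1 lie below 0, WDR82 and HCFC1 above 0, and the intervals of CXXC1, MEN1 and PAGR1 cross 0.

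The proximal promoters of 3 of the genes that changed are shown to place them beside the expression values. KDM6A (MLL3/4, lower with DOX), PSIP1 (MLL1/2, lower) and WDR82 (SETD1, higher) stand for the 3 kinds of complex. Each run holds the 250 bases upstream of the RefSeq start site (GRCh38.p14), from 5′ to 3′ on the gene's own strand. Capitals mark matches to 7 motifs searched on both strands. The KDM6A run is chrX:44872938-44873187 on the plus strand, the PSIP1 run is chr9:15510971-15511220 on the minus strand, and the WDR82 run is chr3:52278650-52278899 on the minus strand. The last lies within the span of the gene, upstream of its canonical transcript, and 25 bases of the PSIP1 run lie in an annotated exon.
KDM6A: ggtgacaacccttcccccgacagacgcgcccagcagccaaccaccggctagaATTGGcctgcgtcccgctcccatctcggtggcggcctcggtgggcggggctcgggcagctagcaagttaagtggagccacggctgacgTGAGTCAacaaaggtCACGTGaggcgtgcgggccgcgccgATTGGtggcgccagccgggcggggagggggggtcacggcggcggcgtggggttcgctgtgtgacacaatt
PSIP1: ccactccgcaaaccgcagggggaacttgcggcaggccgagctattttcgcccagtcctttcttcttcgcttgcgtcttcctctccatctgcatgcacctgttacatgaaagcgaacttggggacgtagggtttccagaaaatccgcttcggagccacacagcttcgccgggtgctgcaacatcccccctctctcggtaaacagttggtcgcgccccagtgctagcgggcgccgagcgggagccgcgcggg
WDR82: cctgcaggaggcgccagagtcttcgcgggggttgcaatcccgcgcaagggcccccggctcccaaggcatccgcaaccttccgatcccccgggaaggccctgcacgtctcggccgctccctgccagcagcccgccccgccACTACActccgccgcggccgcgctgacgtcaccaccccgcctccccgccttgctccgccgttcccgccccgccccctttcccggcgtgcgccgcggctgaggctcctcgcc

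Positions are counted from the start site, with negative values upstream of it. In the KDM6A promoter, the letters of an AP-1 element (TGAGTCA) lay at -110 to -104, and an E-box (CACGTG), the element bound by MYC, at -95 to -90. The reverse letters of CCAAT, the NF-Y element, occurred at -198 to -194 and at -70 to -66. These matches did not overlap. Of 34943 RefSeq promoter windows of 300 bases (250 before and 50 after the start), 4.96% held TGACTCA or TGAGTCA, 7.23% held CACGTG and 34.6% held CCAAT. In the WDR82 promoter, ACTACA, the core of the element bound by ZNF143 and THAP11, lay at -111 to -106, and 8.46% of all windows held it. None of the letters searched was found in the PSIP1 run. A second RefSeq start of PSIP1 had a match to the NF-κB consensus at 40 to 49, and PAGR1 had one at -73 to -64 (11.3% of all windows). MEN1 has a pair of RefSeq starts with overlapping windows, both of which held the same CCAAT and the more upstream of which also held ACTACA. The CXXC1 window held no match. CCGGAAG, an ETS element found in 10.2% of all windows, and the NRF1 consensus, found in 1.23%, were absent from the windows of these 6 genes. HCFC1, NCOA6 and PAXIP1 had no entry. The 8 windows of the 6 genes held 20 to 36 CpG each against a median of 14 over all windows. Of all windows, between 59% (for a MEN1 window) and 87.3% (for WDR82) held fewer.

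Among the SETD1 subunits, WDR82 rose with DOX whereas CXXC1 did not pass the test. CXXC1 (CFP1) binds unmethylated CpG through its CXXC zinc finger and brings SETD1 to CpG islands. The gene lies on chromosome 18 of GRCh38 from 50282343 to 50287839 on the minus strand, with 15 exons in its canonical transcript (GENCODE 44). Its mean normalized count was 624, and the group means computed from the table were 626 with vehicle and 622 with DOX. The log2 fold change was -0.01 (SE 0.09, adjusted p = 0.954, DESeq2), which left 99.4% of vehicle, with a 95% interval from 87.5% to 112.9%.

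WDR82 is a WD-repeat protein, like WDR5, that links SETD1 to RNA polymerase II at the start of transcription. It lies on chromosome 3 from 52254434 to 52288020 on the minus strand, with 9 exons. The computed means were 5273 normalized counts with vehicle and 6410 with DOX. Its log2 fold change of 0.28 (SE 0.05, adjusted p = 5.9e-08, DESeq2) put the level with DOX at 121.6% of vehicle (113.7% to 130.0%). On the log2 scale, the change of WDR82 exceeded that of CXXC1 by 0.29, with a 95% interval from 0.08 to 0.50. Such intervals of a difference were computed for 11 pairs of genes, with the errors of both genes taken as independent and with no test. The choice of pairs was not planned in advance.

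HCFC1, host cell factor, is a large coregulator that tethers SETD1 and MLL1/2 complexes to transcription factors and is cleaved by the glycosyltransferase OGT. The gene lies on chromosome X from 153947557 to 153971818 on the minus strand, with 26 exons. Its computed means were 2735 with vehicle and 3097 with DOX. The log2 fold change was 0.18 (SE 0.06, adjusted p = 0.0127, DESeq2), and the level was 113.2% of vehicle (103.8% to 123.5%). This was the smallest change among the genes called, and the call was lost with the Bonferroni adjustment (adjusted p = 1.0, from the DESeq2 p-values).

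Of the MLL1/2 subunits, PSIP1 fell whereas MEN1 did not pass the test. MEN1 encodes menin, a tumor suppressor of endocrine tissue that anchors MLL1 and MLL2 at their target genes. It lies on chromosome 11 from 64803510 to 64811294 on the minus strand, with 10 exons, and its computed means were 641 with vehicle and 697 with DOX. The log2 fold change of 0.12 (SE 0.08, adjusted p = 0.230, DESeq2) gave 108.7% of vehicle, with an interval from 97.3% to 121.5%.

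PSIP1 encodes LEDGF, a chromatin reader that bridges menin and MLL1 to nucleosomes marked by transcription. PSIP1 was the most abundant of the accessory genes, and its level fell from 14016 to 10988 computed normalized counts. The gene lies on chromosome 9 from 15464066 to 15510995 on the minus strand, with 16 exons. Its log2 fold change was -0.35 (SE 0.05, adjusted p = 2.7e-11, DESeq2), leaving 78.4% of vehicle (73.2% to 83.9%). The change of PSIP1 minus that of MEN1 was -0.47 on the log2 scale (95% interval -0.66 to -0.28). The long and short forms of LEDGF come from the same gene and share 1 value in the table.

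In the MLL3/4 group, 3 of 4 subunits fell, where 28.1% of well-expressed genes were called lower. Whether these 4 genes differ from that share was not tested. KDM6A (UTX) removes methyl groups from lysine 27 of histone H3, the mark set by Polycomb, and its gene is known to escape X inactivation. It lies on chromosome X from 44873188 to 45112779 on the plus strand, with 30 exons. Computed means were 2066 with vehicle and 1632 with DOX, with a log2 fold change of -0.34 (SE 0.06, adjusted p = 4.7e-07, DESeq2) and 79.0% of vehicle left (72.4% to 86.1%).

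NCOA6, a coactivator of nuclear receptors, had the largest change of the 9 genes. It lies on chromosome 20 from 34689097 to 34825651 on the minus strand, with 15 exons. Its level went from 2802 computed normalized counts with vehicle to 2035 with DOX. The log2 fold change was -0.46 (SE 0.06, adjusted p = 1.8e-13, DESeq2), and 72.6% of vehicle was left (66.9% to 78.8%). Of the 7650 well-expressed genes, 9.52% had a lower log2 fold change than NCOA6.

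PAXIP1 (PTIP), a BRCT-domain protein, binds PAGR1 (PA1), and the pair joins MLL3 and MLL4 and also acts with TP53BP1 in DNA repair. PAXIP1 lies on chromosome 7 from 154943687 to 155003124 on the minus strand, with 21 exons, and PAGR1 on chromosome 16 from 29816152 to 29822489 on the plus strand, with 3 exons. PAXIP1 went from 640 computed normalized counts with vehicle to 500.3 with DOX. Its log2 fold change was -0.36 (SE 0.09, adjusted p = 0.000225, DESeq2), and 78.2% of vehicle was left (69.3% to 88.2%). With the Bonferroni adjustment this call was lost (adjusted p = 0.962, from the DESeq2 p-values).

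PAGR1 had computed means of 490.0 with vehicle and 544 with DOX. With a log2 fold change of 0.15 (SE 0.10, adjusted p = 0.195, DESeq2), the level was 111% of vehicle (97.5% to 126.6%). The products of PAXIP1 and PAGR1 bind each other. The log2 fold change of PAXIP1 minus that of PAGR1 was -0.51 (95% interval -0.76 to -0.25), for a pair not planned in advance and not tested. The difference from PAGR1 was -0.49 for KDM6A (-0.72 to -0.27) and -0.61 for NCOA6 (-0.84 to -0.39). The intervals of the differences among the 3 lower genes all included 0. These differences were -0.12 for NCOA6 against KDM6A (-0.29 to 0.05), -0.11 for NCOA6 against PAXIP1 (-0.32 to 0.10) and -0.01 for PAXIP1 against KDM6A (-0.23 to 0.20).

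PAGR1 is the member whose value is most open to reads of other genes. In GENCODE 44, MVP lies on the same strand and shares 185 of the 3874 bases of the canonical PAGR1 transcript, and a pair of unnamed coding loci share 1123 and 402 bases of it. MVP-DT, a noncoding gene on the opposite strand, shares 605 bases. MVP, the major vault protein, was abundant and higher with DOX, at a mean normalized count of 3798 and a log2 fold change of 0.64 (SE 0.05). On the opposite strand, PAXIP1-AS2 shares 511 of the 3864 bases of PAXIP1, with a mean normalized count of 56.6 and a log2 fold change of 0.50 (SE 0.25). SNAPC3 shares 71 of the 3342 bases of PSIP1, with a log2 fold change of 0.12 (SE 0.06), and an unnamed noncoding gene shares 207 of the 7083 bases of NCOA6. The libraries were stranded, but the strand setting and the handling of shared bases in counting are not given in the sources used here, and their part in these values was not tested. CXXC1, WDR82, HCFC1, MEN1 and KDM6A share no exon base of their canonical transcripts with another gene.

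**Figure D2:**
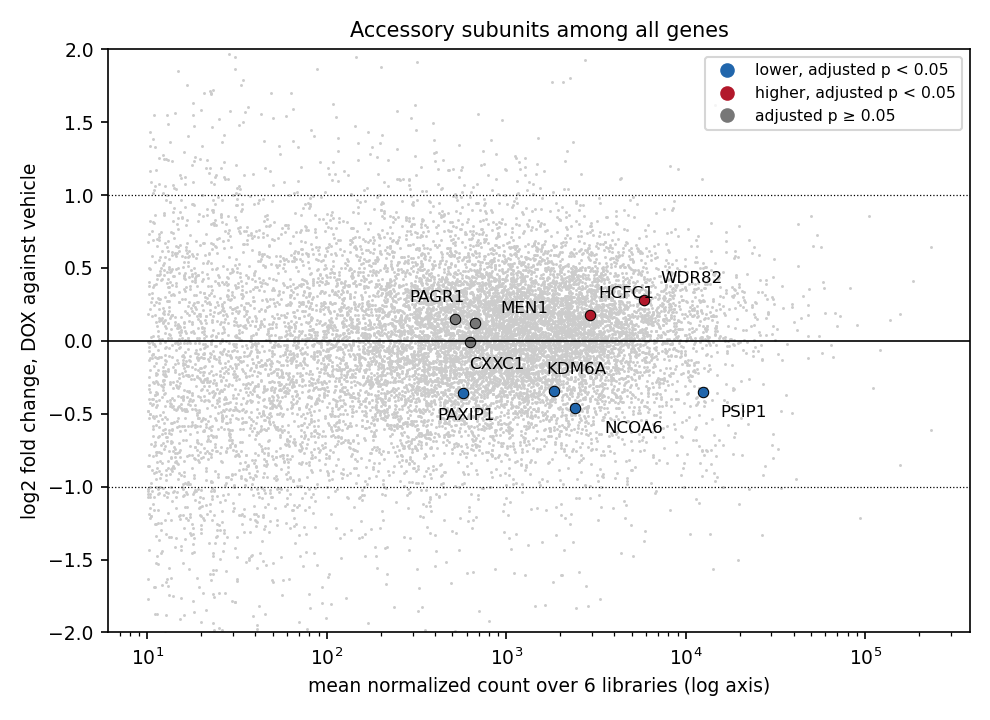
Response to DOX as log2 fold change (vertical) over the mean normalized count of the 6 libraries (horizontal, log axis). Grey points are 13488 genes whose mean normalized count was 10 or more, and 60 further genes lie outside the vertical range. The 9 accessory genes lie well within the grey cloud, between the dotted lines at a log2 fold change of 1 in size.

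None of the 9 genes reached a log2 fold change of 1 in size. With that size required, 2.1% of the 7650 well-expressed genes were called. Among these genes, the log2 fold changes of PSIP1, PAXIP1 and KDM6A had 14.6%, 14.4% and 15.1% of genes below them, and those of WDR82 and HCFC1 had 76.7% and 65.6%. The changes of the accessory genes were thus of moderate rank in a table in which most well-expressed genes were called.

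The SE of each accessory gene was close to that of the 200 genes nearest to it in mean normalized count. DESeq2 models the spread of each gene partly from genes of like mean, so this closeness is partly built in. The SE was 0.05 for WDR82 and 0.05 for PSIP1, the most abundant of the 9, and 0.10 for PAGR1, the least abundant, with medians of 0.05, 0.05 and 0.09 for their neighbors. Taking all size factors as 1, counting of reads made up between 4.45% (PSIP1) and 31.5% (PAXIP1) of the squared SE. What was left corresponds to a coefficient of variation between cultures, as modelled by DESeq2, of 3.95% for WDR82 to 6.89% for CXXC1. Changes of the size seen for KDM6A were therefore several times the SE, whereas those of MEN1 and PAGR1 were less than 2 times theirs.

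Levels can be compared between genes only per length of transcript. Divided by the length of the canonical transcript, the mean normalized count was 3741 per kilobase for PSIP1 and 1363 for WDR82. NCOA6 (341), HCFC1 (329), KDM6A (303), CXXC1 (269) and MEN1 (247) formed a middle group on this scale, and PAXIP1 (148) and PAGR1 (134) were lowest. The reader LEDGF was thus far more abundant as mRNA than its partner menin. PSIP1 and WDR82 were first and second with every choice of length. The order of the others was not fixed, since KDM6A dropped to 66.6 per kilobase when all annotated exons were counted, and NCOA6 to 260 with its longest transcript. With vehicle, PAXIP1 was at 166 per kilobase and PAGR1 at 126, and with DOX at 129 and 141. Over all annotated exons, PAXIP1 was below PAGR1 in both groups, at 66.1 against 126 with vehicle and 51.7 against 141 with DOX.

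**Figure D3:**
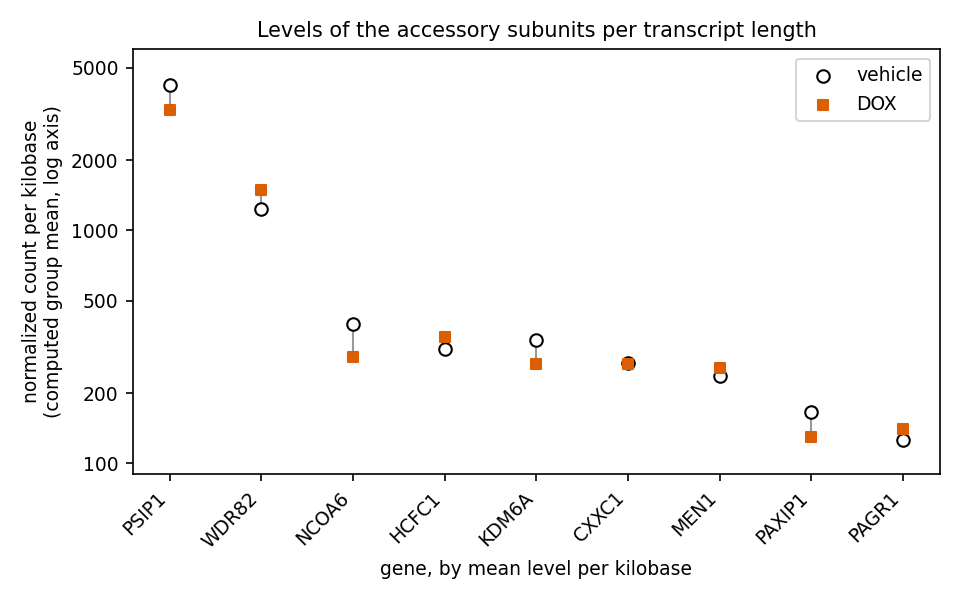
Normalized count per kilobase of canonical transcript for each accessory gene (vertical, log axis), with vehicle (circles) and DOX (squares). The group means were computed from the authors' mean over the 6 libraries and their fold change, and have no error bars. PSIP1 and WDR82 stand above the others, and PAXIP1 and PAGR1 change their order between the groups at this choice of length.

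The methyltransferases and core subunits with which these proteins assemble were examined for comparison. Of 10 core COMPASS genes, 3 rose, WDR5 fell and 6 did not pass the test. Of those other than WDR5, 33.3% were called against 65.4% of well-expressed genes. This difference was not tested, and the list was chosen with earlier results of these data known. The genes that rose were SETD1A, SETD1B and DPY30, with log2 fold changes of 0.30 (SE 0.08), 0.66 (SE 0.10) and 0.29 (SE 0.08). WDR82, SETD1A, SETD1B and HCFC1, which is shared with MLL1/2, were higher. CXXC1 had a value near 0, and the SETD1 associates BOD1 and BOD1L1 were lower. Of well-expressed genes, 37.3% were called higher, and whether the SETD1 genes differ from that share was not tested. The shared core genes RBBP5 and ASH2L had log2 fold changes of -0.07 (SE 0.06) and -0.01 (SE 0.05). The methyltransferases KMT2C (MLL3) and KMT2D (MLL4) had log2 fold changes of 0.09 (SE 0.08) and 0.12 (SE 0.08), and did not pass the test. Of their partners, NCOA6, PAXIP1 and KDM6A fell and PAGR1, with a value of 0.15 (SE 0.10), did not pass the test. KMT2A (MLL1) and KMT2B (MLL2) had values of -0.07 (SE 0.08) and 0.01 (SE 0.07).

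Of 3 paralogs of accessory subunits, 2 fell, so that 66.7% were called against 65.4% of well-expressed genes (28.1% called lower). HCFC2, the smaller relative of HCFC1, fell to 74.6% of vehicle (65.5% to 84.9%, adjusted p = 3.9e-05, DESeq2), against the rise of HCFC1, a difference in log2 fold change of 0.60 (0.38 to 0.83). KDM6B (JMJD3), the other main H3K27 demethylase of the family, fell to 62.7% (56.4% to 69.7%, adjusted p = 7.9e-17, DESeq2). Its decrease was larger than that of KDM6A, with a difference of 0.33 on the log2 scale (0.14 to 0.53). HDGFL2, the paralog of PSIP1, had 89.8% of its vehicle level (81.7% to 98.7%, adjusted p = 0.0555, DESeq2) and did not pass the test. Of the SETD1 associates BOD1 and BOD1L1, both fell, with log2 fold changes of -0.53 (SE 0.05) and -0.21 (SE 0.06). The same 28.1% of well-expressed genes called lower applies to them.

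Several accessory subunits also work in complexes other than COMPASS. Of 12 such partners, 7 rose, 4 fell and 1 did not pass the test, so that 91.7% were called against 65.4% of well-expressed genes. The list was chosen with earlier results of these data known, so this share cannot show an excess. WDR82 joins PPP1R10 (PNUTS), TOX4 and the PP1 phosphatases, a complex that dephosphorylates RNA polymerase II. In that group PPP1R10 rose to 154% of vehicle (141% to 168%) and PPP1CA and PPP1CC to 129% and 130.4%, whereas TOX4 fell to 73.3% and PPP1CB to 81.4%. ZC3H4, with which WDR82 ends the transcription of noncoding RNA, rose to 113.3% (102.9% to 124.8%). Among the partners of HCFC1, OGT rose to 127%, BAP1 to 120.0% and THAP11 to 122%, and ZNF143 fell to 78.5%. TP53BP1, the repair partner of PAXIP1, was at 104% (96.2% to 112.3%) and did not pass the test. JUND, an AP-1 protein that menin binds, fell to 54.4% (adjusted p = 1.2e-43, DESeq2).

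**Figure D4:**
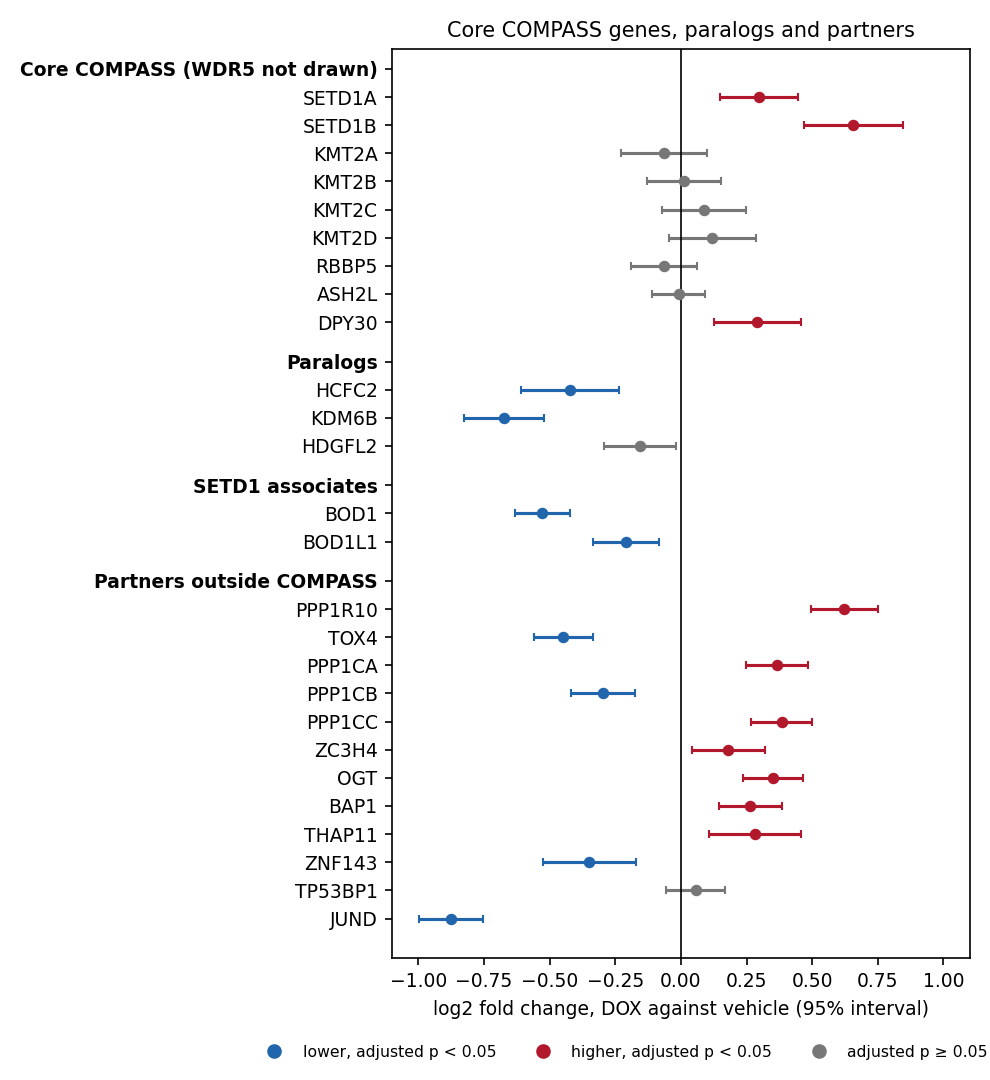
Response to DOX, as log2 fold change, of core COMPASS genes other than WDR5, paralogs, SETD1 associates and partners of the accessory subunits, from the authors' DESeq2 table (3 cultures a group). Points are the estimates and bars the 95% intervals. SETD1A, SETD1B and DPY30 lie above 0, HCFC2, KDM6B, BOD1 and BOD1L1 below 0, and the partners lie on both sides.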

How the data were processed

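The data are RNA-seq of 6 cultures, 3 with vehicle and 3 with DOX, grouped by the sample titles. Per the labels and the study's methods, stranded poly(A) libraries were aligned to GRCh38 with STAR and compared with DESeq2 by the authors. The study's methods name a release of the GRCh38 reference. The counter and the versions of STAR and the comparison tool are not given in the sources used here. The authors deposited 1 table, with the mean normalized count of each gene over the 6 cultures, a signal scaled by DESeq2 size factors. It also holds the log2 fold change with its standard error, the Wald statistic, a score deposited by the authors, and the p-value and adjusted p-value deposited by the authors. These columns are the authors' own comparison, and it was used because the table holds no value of a single sample. Confidence intervals (95%) are the estimate ± the SE times the normal quantile. Group means were computed here from the mean and the fold change, with 3 libraries a group. The listed adjusted p-values were recomputed over 15954 genes and matched to rounding. Positions and lengths came from GENCODE 44 (GRCh38), to which all 9 symbols matched, and promoters from RefSeq (GRCh38.p14), to which 6 matched. The members, gene lists and motifs were chosen with earlier results of these data known. Named genes were the members, WDR5, the listed genes and genes sharing exon bases with members, the last chosen after their values were seen. One further marker was left out and is not reported here. Alternatives were other filters, adjustments, thresholds, shrinkage, centring and transcript lengths. The functions were tested on simulated data. Computation used Python 3.11.15 with pandas 2.3.3, scipy 1.17.1 and numpy 2.4.6, and figures matplotlib 3.10.9. P-values cover only the spread between these 6 cultures, which may be technical.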

Additional observations from a re-analysis of the deposited data

How the results depend on the processing

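The counts of 4 lower and 2 higher accessory genes were the same with the adjustment made over genes whose mean normalized count was at least 10, 50 or 500 (the last chosen after seeing the data), with no independent filtering, and with centring on the median log2 fold change of 0.003. With the Bonferroni adjustment, 1 accessory gene was higher and 3 were lower, and with Benjamini-Yekutieli 1 was higher and 4 were lower. HCFC1 lost its call in both, and PAXIP1 with Bonferroni. With a log2 fold change of at least 1 added, or tested against more than 0.5 in size, 0 were lower and 0 higher, by the construction of these rules. Over all genes, the main counts of 3594 lower and 3871 higher became 1622 and 1839 with Bonferroni, 552 and 255 with the log2 fold change of 1 added, and 483 and 347 tested against 0.5. Adjusted over genes with a mean of at least 500, 2214 were lower, since fewer genes were tested. Shrinkage by a normal prior (SD 0.441) moved none of the 9 log2 fold changes by more than 1 SE. The level per kilobase moved for 2 accessory genes with the longest transcript and for 7 with all annotated exons. No paired analysis was possible because the table holds no value of a single culture, and leaving out each culture was not run for the same reason.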

Other observations

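Genes known as targets of menin and MLL1 were called higher with DOX in 4 of 5 cases, where 24.3% of all genes with an adjusted p and 37.3% of those with a mean normalized count of 500 or more were called higher. Of the 5, 3 had far lower levels than that. These targets too were chosen with earlier results of these data known, so their share cannot show an excess. HOXA10, a homeobox gene, rose to 203% of vehicle (95% interval 155% to 265%, adjusted p = 1.1e-06, DESeq2), and its cofactor MEIS1 rose to 179% (139% to 231%). Both had low levels, at mean normalized counts of 97.2 and 108. CDKN2C and CDKN1B, cell cycle inhibitors that menin is known to activate, rose to 156% (145% to 168%) and 112.9% (104.0% to 122.5%). HOXA9, at a mean normalized count of 10.1, had an interval from 75.2% to 369% and did not pass the test.

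Of 8 other genes with a CXXC zinc finger, the DNA-binding module of CXXC1, 3 rose, 1 fell and 4 did not pass the test, so that 50% were called against 46.8% of all genes with an adjusted p. KDM2A and KDM2B, demethylases at CpG islands, rose to 123% (114% to 132%) and 125% (110.0% to 141%), and TET1 rose to 168% (128% to 221%). MBD1 fell to 81.3% (73.8% to 89.7%). Of 5 H3K4 demethylases, which remove the mark that COMPASS sets, KDM1A (LSD1) and KDM5A rose to 127% (119% to 136%) and 111.8% (102.2% to 122.4%). KDM5C fell to 65.0% (60.0% to 70.4%), and KDM5B and KDM1B did not pass the test. The 60% of these demethylases that were called compares with 65.4% of genes whose mean normalized count was 500 or more.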
